A study of Mus musculus with 8 samples.

Results

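The genes described here are the neurotrophins brain-derived neurotrophic factor (Bdnf) and neurotrophin-3 (Ntf3), the Trk receptors TrkB (Ntrk2) and TrkC (Ntrk3), the p75 neurotrophin receptor (Ngfr) and sortilin (Sort1). They are 6 of the 53801 genes in the deposited count table, picked by name as a gene family and not by a threshold on their values, though with earlier results of these data known, and all 6 passed the filter on low counts in every comparison. RNA was sequenced from dorsal root ganglia, where the somata of the body's sensory neurons lie together with satellite glia, Schwann cells, macrophages and vessels. Mice had the left L4 spinal nerve tied tightly, which cuts off the peripheral axons running in it, and each mouse served as its own control through its right side.

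Injured libraries came from the left ganglia L3 to L5 at days 1, 3 and 7 after ligation, 1 library per day, and contralateral libraries from the right ganglia of the same mice. A further pool, labelled no injury, had its left and its right ganglia sequenced as 1 library each. This makes 8 libraries, each from 3 pooled mice. All mice are given as male C57BL/6J in the labels, with no transgene or drug treatment beyond anaesthesia and local anaesthetic. Because L3 to L5 were pooled, each injured library mixes the L4 ganglion with 2 ganglia that kept their nerve intact, which limits how large a difference between the sides can appear. In such bulk tissue fewer cells of a type and less RNA per cell cannot be told apart.

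The libraries held 20488115 to 21652688 counted reads each. The injury genes Atf3, Sprr1a, Gal, Npy and Csf1 were higher on the injured side in each of the 3 operated pools, with Atf3 at 464, 629 and 618 CPM (the count scaled to the library total) in injured ganglia of days 1, 3 and 7, 126, 167 and 110 CPM on the contralateral side, and 10.9 and 10.99 CPM without injury. These genes were also higher in each contralateral library than in both libraries without injury. On the contralateral side of days 1, 3 and 7 Sprr1a had 3.52, 126 and 130 CPM, against 0.145 and 0.323 CPM without injury. Gal had 22.1, 133 and 83.5 CPM there, against 8.34 and 10.3 CPM. For these genes the contralateral side is thus not at the level without injury. The reason, and its part in the 6 genes, was not tested. Markers of sensory neurons were abundant in every library: the summed level of 10 pan-neuronal genes lay between 9670 and 12804 CPM. The libraries labelled no injury stood apart from the operated ones in genes that mark sex and strain background. Reads of Xist, a transcript of the inactive X chromosome, numbered 4931 and 4129 in this pool but 3 or fewer in each operated library, Kdm5d, on the Y chromosome, had 0 reads in it and 280 to 354 elsewhere, and the GABA receptor gene Gabra2, known to be weakly expressed in the C57BL/6J strain, had 971 and 1026 reads there against 2716 to 3392 in the operated libraries. The Xist and Kdm5d reads are at odds with the label male for the pool labelled no injury. By Gabra2 it is the operated libraries, with the higher level, whose strain label is in question. Injury, pool and these differences cannot be told apart in any comparison with the libraries labelled no injury. The contralateral library of day 1 had a summed level of 517 CPM of 10 neutrophil and marrow genes. The left library without injury had 277 CPM, and the remaining libraries had 23.8 to 93.4 CPM.

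Neurotrophins are secreted growth factors that keep sensory neurons alive during development and tune their excitability in the adult. Each is made as a longer precursor and binds a Trk receptor tyrosine kinase, BDNF preferring TrkB and neurotrophin-3 preferring TrkC, while p75 binds all of them and, together with sortilin, binds their uncleaved precursors. In sensory ganglia TrkC marks proprioceptors and other large-fibre neurons, TrkB marks a class of low-threshold mechanoreceptors and, in a truncated form without the kinase, glia, and BDNF is made by a subset of neurons that can transport it to the spinal cord. The counts are per gene, so the full-length and truncated receptors were not separated.

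Bdnf lies on chromosome 2 from 109674700 to 109727007 on the plus strand (GRCm38, as are all positions given), Ntf3 on chromosome 6 from 126101412 to 126166910 on the minus strand and Ntrk2 on chromosome 13 from 58806569 to 59133970 on the plus strand. Ntrk3 lies on chromosome 7 from 78175959 to 78738012 on the minus strand, Ngfr on chromosome 11 from 95568818 to 95587735 on the minus strand, and Sort1 on chromosome 3 from 108284082 to 108361511 on the plus strand. All 6 are protein-coding. Whether counting used strand is not known from the labels, so reads of antisense partners cannot be told apart from those of the gene. Among annotated genes overlapping them on the other strand, Gm9885 in Ntrk3 held 662 reads over the 8 libraries against 60935 for Ntrk3, Gm45346 in Bdnf held 80 against 9926 for Bdnf, and partners of the other genes held at most 2 reads.

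Bdnf has several promoters, each in front of its own first exon, and the gene count sums over all of them, so the data do not show which was used. The 7 start sites listed for Bdnf by RefSeq (GRCm38.p6) were searched from 250 bases before to 50 after the start, on both strands, for 3 motifs of injury- and activity-induced transcription factors. These were the AP-1 pattern TGANTCA, N being any base, the cyclic AMP response element TGACGTCA, and its variant TCACGTCA. The AP-1 pattern includes sites bound by dimers such as Jun with Fos or Atf3. The variant is known from the activity-dependent promoter of Bdnf, so a match to it in Bdnf was set by this choice. The 2 stretches that held a match are shown because Bdnf was the neurotrophin that rose, and the capitals mark the match.
Bdnf start 2, chr2:109676853-109676912, plus strand, AP-1 site beginning 152 bases before the start: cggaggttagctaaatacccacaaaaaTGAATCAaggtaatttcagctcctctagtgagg
Bdnf start 3, chr2:109692372-109692431, plus strand, variant element beginning 38 bases before the start: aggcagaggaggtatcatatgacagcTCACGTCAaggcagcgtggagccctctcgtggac
AP-1 matches were found in 7.81% of the 32851 windows of all genes, the full cyclic AMP element in 1.79% and its variant in 0.441%. These shares are per window, while Bdnf had 7 windows. The AP-1 match of Bdnf has A at the open base N, where the usual AP-1 consensus has C or G. The label AP-1 site above thus means a match to the open pattern and not to that consensus. For the variant, picked from Bdnf, the share does not show how unusual its match is. The other 5 windows of Bdnf, both windows of Ntf3 and the single windows of Ntrk2 and Ngfr held none of the 3 motifs, and Ntrk3 and Sort1 had no window. A match describes these letters and does not show that a factor bound there.

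Per length of annotated exon, which allows levels of different genes to be compared, Ngfr was far above the rest. Its level was 188 to 246 CPM per kb of exon over the 8 libraries with a median of 221. Ntrk2 had a median of 13.0 (11.7 to 14.2), Sort1 of 11.8 (9.86 to 12.5), Ntrk3 of 11.4 (7.61 to 17.1) and Bdnf of 8.43 CPM per kb (7.23 to 15.4). Ntf3 was lowest with a median of 0.362 (0.166 to 1.21). Ngfr and Ntf3 did not overlap with any of the other 4 genes, whereas the ranges of Ntrk2, Sort1, Ntrk3 and Bdnf overlapped. Within a library Ntrk2 was above Sort1 in 8 of 8 libraries, Sort1 above Ntrk3 in 3 of 8 and Ntrk3 above Bdnf in 5 of 8. The exons of all annotated isoforms count towards the length, so levels of genes with many isoforms, such as Ntrk3 with 30170 bases of exon against 3446 for Ngfr, are understated. Within a library the per-length ratio of Ntrk3 to Ntrk2 was 0.945, 0.613 and 0.661 in injured ganglia of days 1, 3 and 7, 1.14, 0.818 and 0.801 on the contralateral side and 1.20 and 1.12 without injury. Which of the pair ranks higher depends on the length used: by CPM, without length, Ntrk3 was above Ntrk2 in 5 of the 6 operated libraries.

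**Figure D1:**
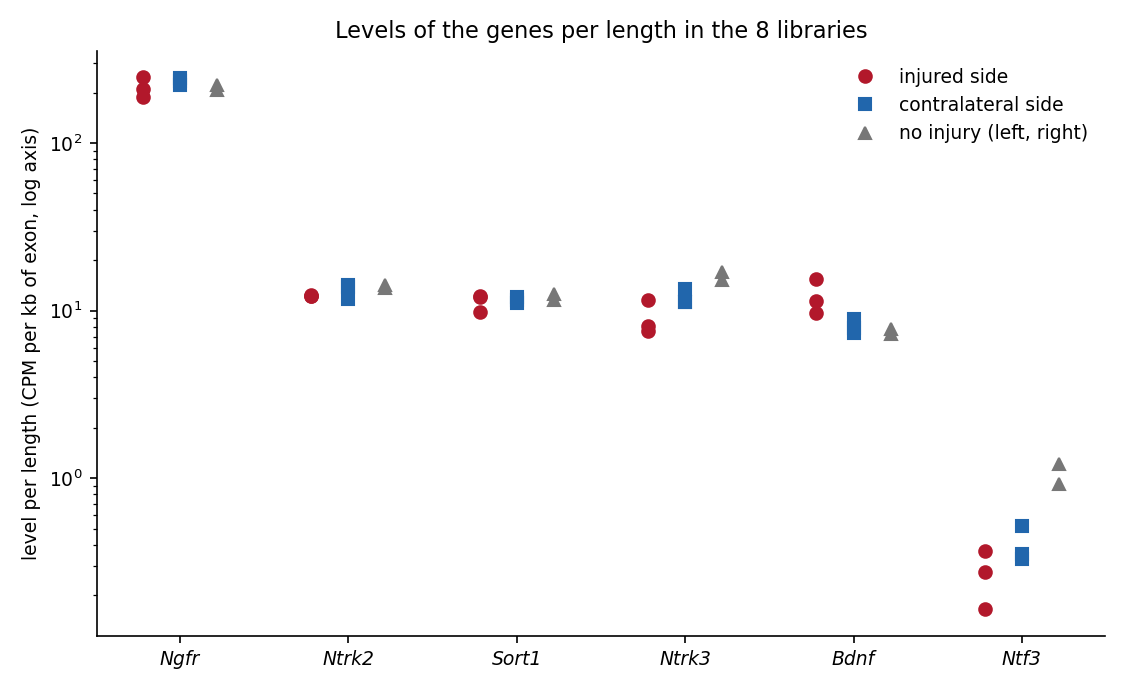
Level per length (CPM per kb of annotated exon, log axis) of the 6 genes, ordered by median; each point is 1 library, for the injured side (3 libraries), the contralateral side (3) and the pool labelled no injury (2). Ngfr lies between 188 and 246, Ntf3 at or below 1.21, and the other 4 genes overlap.

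The study asks how ganglia on the tied side differ from those of the other side in the same animals. The fit took all 8 libraries, each pool being a block (edgeR quasi-likelihood test, Benjamini-Hochberg adjustment over 16244 genes, threshold 0.05). Of the 6 genes 1 rose, Bdnf, and 1 fell, Ntrk3, while the other 4 did not pass. In the same test 18.1% of all genes were called, 10.1% higher and 8.02% lower. With only 6 genes the share called, 33.3%, cannot be told apart from that of genes at large. The median log2 difference was -0.12 over the 6 genes and 0.02 over all genes. Each p-value reflects how far the differences between the sides spread over the operated pools, with the days included in that spread. It also rests on the left to right difference in the pool labelled no injury and on variation shared over genes by the test. Without the pool labelled no injury the log2 differences stayed at 0.57 for Bdnf and -0.43 for Ntrk3, while 7.57% of all genes were called.

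Bdnf stood at 95.9, 70.8 and 60.4 CPM in injured ganglia of days 1, 3 and 7, 55.6, 49.2 and 45.9 CPM on the contralateral side, and 45.0 and 48.2 CPM in the left and right libraries without injury. All 3 injured libraries were above all 3 contralateral libraries, an ordering found in 14.7% of genes tested, and the highest value belonged to day 1. Fitted over the pools Bdnf was higher in injured ganglia by 1.48-fold (log2 difference 0.57 ± 0.09, SE, 3 pools; edgeR adjusted p = 0.00710), in the same direction in 3 of 3 pools. Leaving out any pool kept the call, with log2 differences between 0.43 (without day 1) and 0.65 (without day 7).

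Within a pool the normalised ratio of the injured to the contralateral library of Bdnf was 1.76 at day 1 (95% counting interval 1.64 to 1.90), 1.40 at day 3 (1.29 to 1.51) and 1.31 at day 7 (1.20 to 1.42). The left to right ratio without injury was 0.924 (0.845 to 1.01), with an interval that includes 1. Such intervals hold counting error alone, because each side of a pool is 1 library and the spread between mice is left out. Reads that carry no molecular identifier are not independent molecules, so the intervals may be too narrow even for counting error. The day 1 ratio was above that of 96.7% of genes at that day, and the ratios of days 3 and 7 were above those of 81.0% and 84.1% of genes at theirs.

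Ntf3 was scarce in every library. It had 13, 10 and 6 reads in injured ganglia of days 1, 3 and 7, 12, 13 and 19 on the contralateral side, and 33 and 45 in the left and right libraries without injury, all above the 3 reads that a count of 0 allows for. In CPM these are 0.635, 0.473 and 0.284, then 0.564, 0.608 and 0.894, and 1.59 and 2.08. The injured and contralateral libraries overlapped, and the difference between the sides was not detectable at this depth (log2 -0.58 ± 0.41, SE; edgeR adjusted p = 0.362). At day 7 the ratio of the sides was 0.316, with a counting interval of 0.103 to 0.824, and the intervals of days 1 and 3 included 1.

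**Figure D2:**
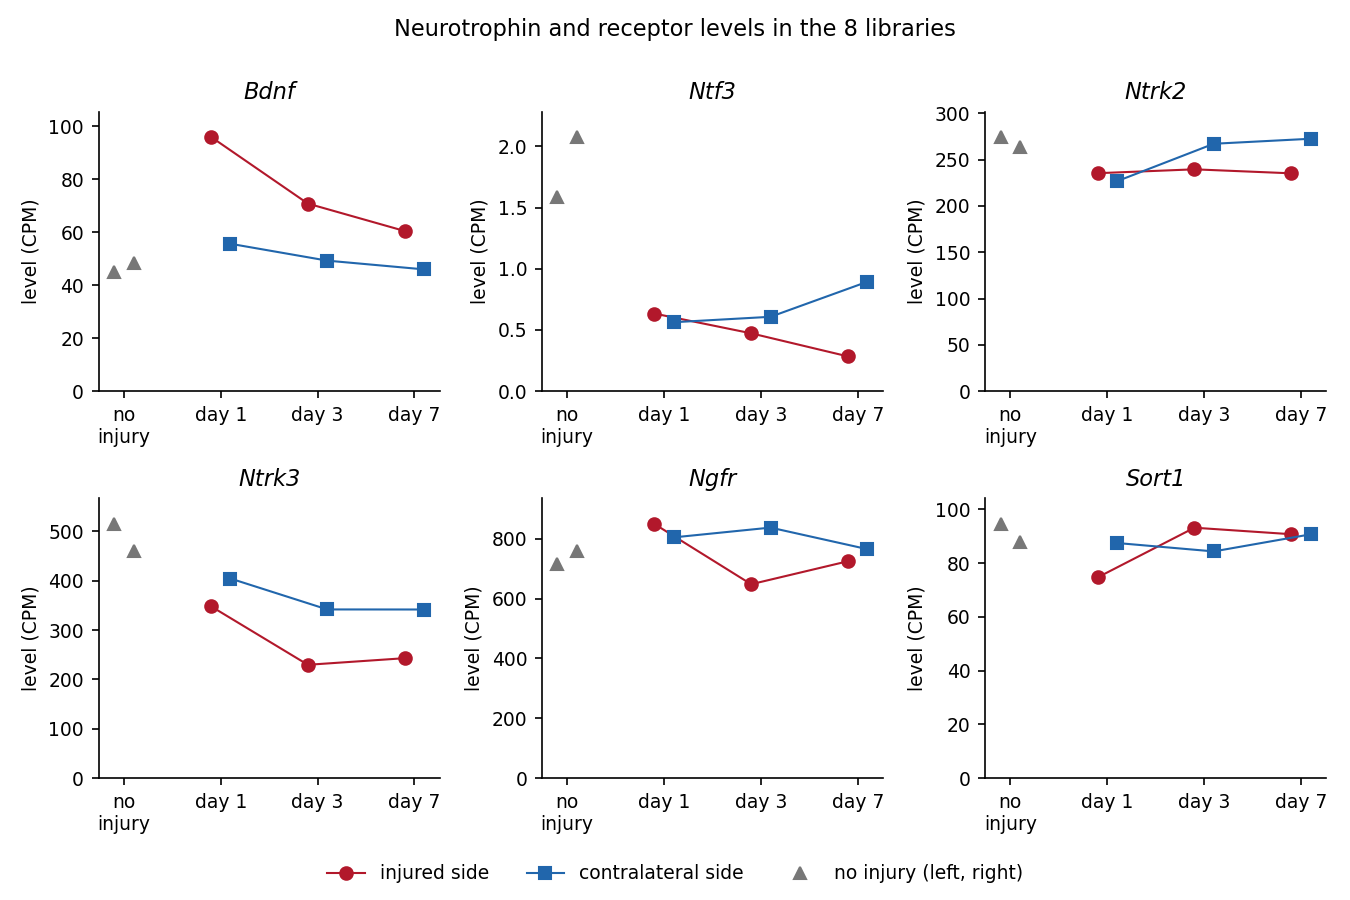
Level (CPM) of each of the 6 genes in the 8 libraries, with the injured side left of the contralateral side at each day after ligation and the left and right libraries without injury at the low end; each point is 1 library and lines join libraries of a side. Bdnf is highest on the injured side at day 1 (95.9 CPM), Ntrk3 is lower on the injured than on the contralateral side at every day, and Ntf3 stays at or below 2.08 CPM.

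Among the receptors, Ntrk3 was at 348, 229.6 and 243 CPM in injured ganglia of days 1, 3 and 7, 404, 342 and 342 CPM on the contralateral side, and 515 and 461 CPM without injury. The injured library was the lower of the pair in each of the 3 pools, although the injured library of day 1 was slightly above the contralateral libraries of days 3 and 7, so the groups overlapped (in 15.7% of all genes every injured library was below every contralateral one). Ntrk3 fell to 0.742 of the contralateral level (log2 -0.43 ± 0.09, SE; edgeR adjusted p = 0.0197). The call rests on the full set of libraries: the adjusted p was 0.0796 without the day 3 pool, 0.126 without day 7, 0.0543 without the pool labelled no injury and 0.062 without the block, at log2 differences of -0.34, -0.40, -0.43 and -0.59, and 0.000627 at -0.56 without day 1. The ratio of the sides was 0.880 at day 1 (counting interval 0.852 to 0.908), 0.653 at day 3 (0.629 to 0.677) and 0.708 at day 7 (0.683 to 0.734), while the left library was above the right without injury, at 1.11 (1.08 to 1.14).

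Markers of the neurons in which TrkC is found were, in sum, also lower on the injured side in each pool. The summed level of 10 large-fibre neuron markers, a list without Ntrk3, was 4171, 3659 and 3304 CPM in injured ganglia of days 1, 3 and 7, 4686, 4618 and 4879 CPM on the contralateral side and 4642 and 4545 CPM without injury. Of these 10 genes 7 fell and 1, Spp1, rose, with Etv1, a transcription factor of proprioceptors, at a log2 difference of -0.79 and the neurofilament gene Nefh at -0.38. Nefh made up most of the sum, with 2756, 2336 and 2124 CPM in injured ganglia of days 1, 3 and 7 and 2993, 3101 and 3224 CPM on the contralateral side. Unlike Ntrk3, the contralateral sums overlapped those without injury. The lowest injured sum was at day 7, whereas Ntrk3 was lowest at day 3. Of 10 pan-neuronal genes 4 fell and 1 rose, and of 10 nociceptor genes 2 fell and 1 rose. The share called was thus 80% for large-fibre, 50% for pan-neuronal and 30% for nociceptor markers, beside the 18.1% of all genes. The part of these markers in the lower level of Ntrk3 was not tested.

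Ntrk2 was at 235, 239.5 and 235 CPM in injured ganglia of days 1, 3 and 7, 227, 267 and 272 CPM on the contralateral side and 274 and 264 CPM without injury. The injured libraries hardly differed from each other, and the groups overlapped only through the low contralateral library of day 1. The difference between the sides did not pass (log2 -0.11 ± 0.07, SE; edgeR adjusted p = 0.326). Without the day 1 pool it did, at -0.21 (adjusted p = 0.0326).

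Ngfr was at 849, 648 and 725 CPM in injured ganglia of days 1, 3 and 7, 804, 837 and 765 CPM on the contralateral side and 717 and 760 CPM without injury. The highest and the lowest of all 8 libraries were both injured ones, those of day 1 and day 3. Over the pools the difference did not pass (log2 -0.13 ± 0.10, SE; edgeR adjusted p = 0.417). Ngfr is carried by sensory neurons and, known from cut nerves, by repair Schwann cells that have lost their myelin programme. The summed level of 10 repair Schwann cell markers was 714, 1152 and 1313 CPM in injured ganglia of days 1, 3 and 7, 505, 627 and 581 CPM on the contralateral side and 480.4 and 497 CPM without injury. Of the 8 markers tested 5 rose, Jun, Ncam1, Lif, Gdnf and Shh, beside 10.1% of all genes called higher. At least Jun and Ncam1 among them are also expressed by neurons. The sum was mostly Gap43, an axon growth gene of neurons that was not called, Jun and Ncam1, which together had 659, 1073 and 1268 CPM in injured ganglia of days 1, 3 and 7 against 465, 589 and 543 CPM in contralateral ganglia. The other 7 markers summed to 54.8, 79.1 and 45.0 CPM against 40.2, 38.5 and 38.9 CPM, so that the sum is not a measure of repair Schwann cells. Sort1 was at 74.6, 93.1 and 90.7 CPM in injured ganglia of days 1, 3 and 7, 87.4, 84.3 and 90.7 CPM on the contralateral side and 94.5 and 87.9 CPM without injury, with overlapping groups and no call (log2 -0.03 ± 0.07, SE; edgeR adjusted p = 0.778).

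**Figure D3:**
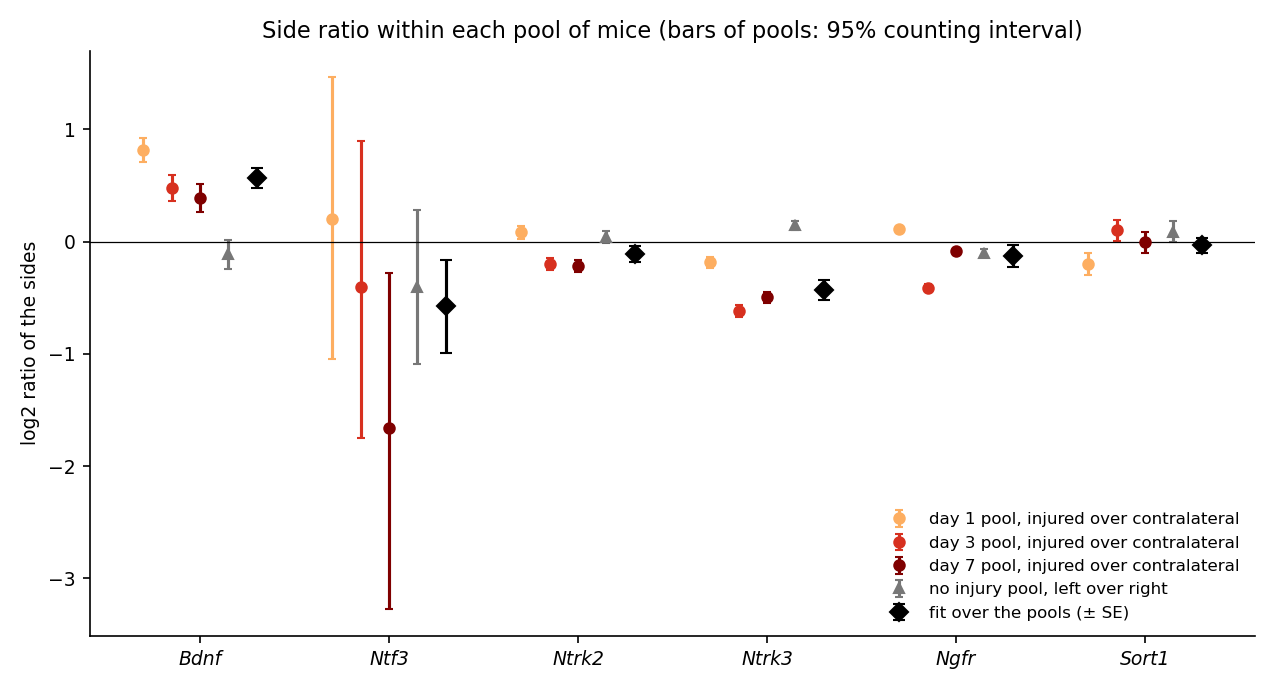
Log2 ratio of the sides for each gene, as injured over contralateral in the pools of days 1, 3 and 7 and as left over right in the pool labelled no injury, with 95% counting intervals as bars; black diamonds give the fit over the pools with its SE. Bdnf lies above 0 and Ntrk3 below 0 in all 3 operated pools, and Ngfr and Ntrk2 change sign between day 1 and day 3.

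**Figure D4:**
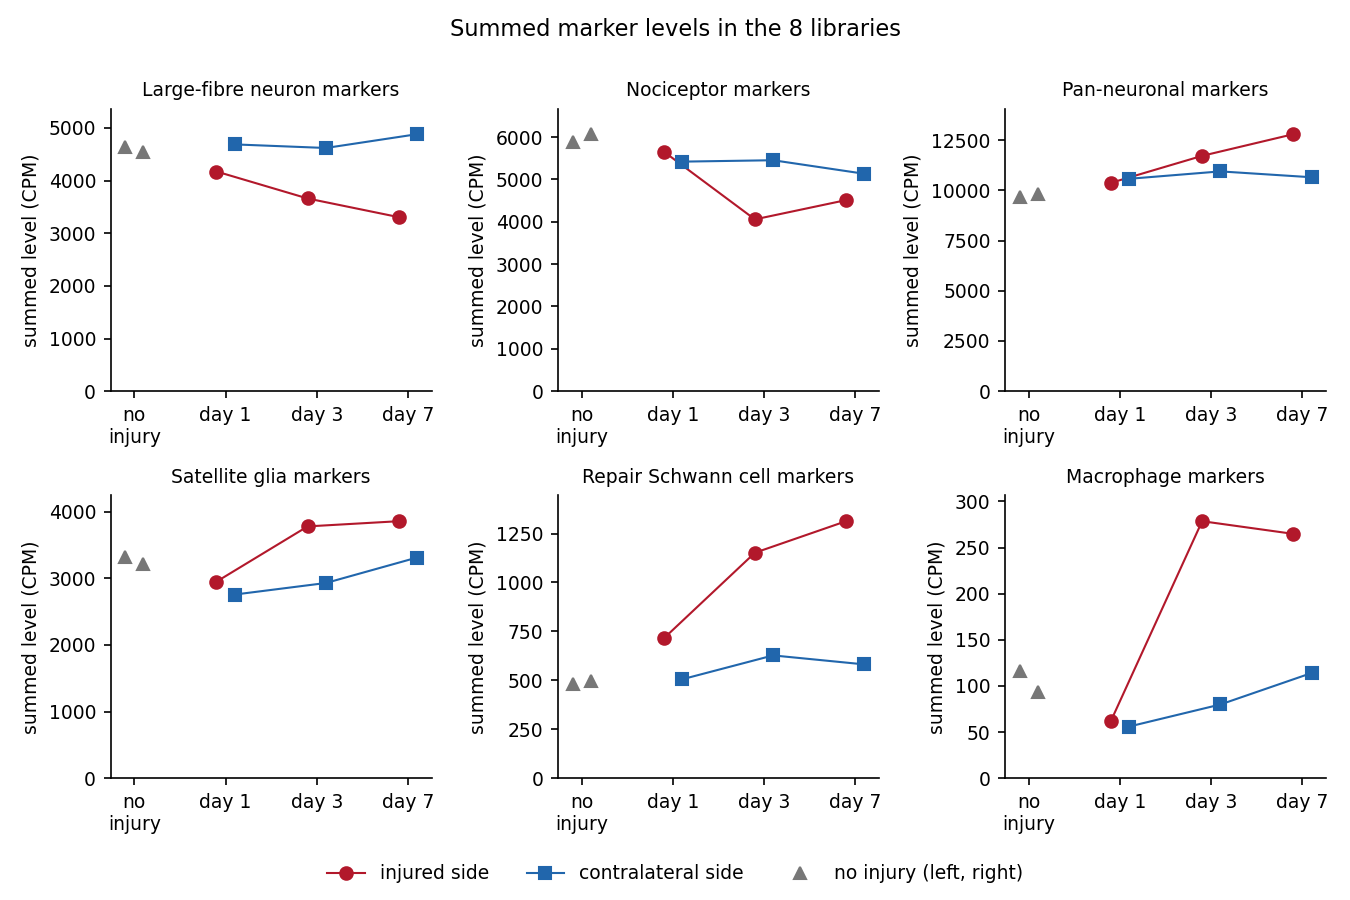
Summed level (CPM) of 6 marker lists of 10 genes each in the 8 libraries, drawn as for the single genes. Large-fibre neuron markers sum to 3304 CPM on the injured side at day 7 against 4879 CPM on the contralateral side, and repair Schwann cell markers to 1313 against 581 CPM, of which Gap43, Jun and Ncam1, genes that neurons express, make up 1268 and 543 CPM.

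A limit shared by these values is that the injured side was always the left. With side as a further term, which the pool labelled no injury alone sets, Bdnf had a log2 difference of 0.68 ± 0.19 and Ntrk3 of -0.58 ± 0.20 (SE; edgeR adjusted p = 0.453 and 0.496), and 0.0369% of all genes were called.

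The difference between the sides was next followed over time by a slope per doubling of days (edgeR, 2 residual degrees of freedom). None of the 6 genes passed, and 0% of the 16244 genes did; at an unadjusted p under 0.05 there were 1 of the 6 genes, Bdnf, and 1299 of all genes, and DESeq2 called 48 genes and limma-voom 0, none of them among the 6. Bdnf had a slope of -0.16 ± 0.05 (log2 per doubling of days, SE; unadjusted p = 0.0183, adjusted p = 0.521). Ntf3 had -0.63 ± 0.30, Ntrk2 -0.11 ± 0.05, Ntrk3 -0.12 ± 0.07, Ngfr -0.08 ± 0.09 and Sort1 0.07 ± 0.05. Without day 7 the slope of Ngfr was -0.33 (adjusted p = 0.0264), which then compares days 1 and 3 only.

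For the contralateral side the baseline was the left and right library without injury, added up to 1 sample whose variation is taken to equal that of the others (edgeR, 16747 genes, 2 residual degrees of freedom). None of the 6 genes passed, against 0.281% of all genes; at an unadjusted p under 0.05 there were 2 of the 6, Ntf3 and Ntrk3, and 1480 of all genes (8.84%). DESeq2 called Ntrk3 and limma-voom none. All 3 contralateral libraries of Ntrk3 were below both libraries without injury, as in 19.5% of genes (log2 -0.42 ± 0.11, SE; adjusted p = 0.266). Its adjusted p was 8.86e-05 at a log2 difference of -0.50 without the day 1 pool and 0.0399 by DESeq2, and ranged from 3.06e-05 to 0.789 over 9 alternatives. Ntf3 likewise lay below both (log2 -1.40 ± 0.41, SE; adjusted p = 0.337), and without the day 1 pool it passed at -1.28 (adjusted p = 0.0455; 0.0455 to 0.880 over 9 alternatives). Bdnf had a log2 difference of 0.12 ± 0.12, Ngfr of 0.13 ± 0.09 with its contralateral libraries above both baseline libraries, as in 17.9% of genes, Ntrk2 of -0.07 ± 0.11 and Sort1 of -0.05 ± 0.08.

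The injured libraries set against the same sum gave log2 differences of 0.71 ± 0.30 for Bdnf, -1.97 ± 0.50 for Ntf3 and -0.83 ± 0.28 for Ntrk3, with adjusted p of 0.391, 0.252 and 0.328 (SE; edgeR, 16924 genes). None of the 6 genes passed, against 0.136% of all genes (0.0236% for the lower direction); at an unadjusted p under 0.05 there were 2, Ntf3 and Ntrk3, and 2356 of all genes (13.92%), and neither DESeq2 nor limma-voom called any of the 6. Without the day 1 pool Bdnf, Ntf3 and Ntrk3 passed, at 0.48, -2.28 and -1.05 (adjusted p = 0.0452, 0.0258 and 0.00258). All injured libraries of Bdnf were above both baseline libraries, an ordering of 24.0% of genes, and those of Ntf3, Ntrk2 and Ntrk3 were below both, an ordering of 26.0% of genes. Both comparisons share the libraries labelled no injury. Skeletal muscle expresses Ntf3, and the summed level of 10 muscle markers was 96.3, 93.4 and 195 CPM in the injured libraries of days 1, 3 and 7, 116, 101 and 223 CPM in the contralateral ones, and 293 and 1569 CPM in the left and right libraries without injury. The muscle list includes Pvalb, which is also among the large-fibre neuron markers. Pvalb alone had 76.0, 60.1 and 44.4 CPM in the injured libraries of days 1, 3 and 7, 97.3, 72.7 and 92.3 CPM in the contralateral ones, and 107 and 184 CPM without injury. In the operated libraries of days 1 and 3 Pvalb thus made up most of the sum. None of the 10 muscle genes was at 0 in any library, and their part in the level of Ntf3 was not tested.

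Other genes of neurotrophin signalling were counted in 5 lists of 97 genes, of which 93 passed the filter. In the comparison of the sides 10 rose and 9 fell, or 20.4% of those tested against 18.1% of all genes, with a median log2 difference of 0.05 against 0.02. None of the 5 lists had a member called in the slope over days or against the libraries labelled no injury. Leaving out the day 1 pool kept all 19 calls; 9 were kept without day 3, 8 without day 7, 10 without the pool labelled no injury, 15 without the block, 17 with no filter, 18 by DESeq2 and 0 with side as a further term, with no direction turned in any of them. Only 7 of the 19 calls were kept whichever pool was left out, among them Sorcs2, Rtn4rl1, Lingo1, Ptpn1, Ehd4 and Coro1a.

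In the list of the remaining neurotrophins, Trk receptor and sortilin family, 1 of 6 genes tested rose and 2 fell (median log2 -0.03). Sorcs2, a sortilin-family partner of p75 for precursor neurotrophins, was at 31.6, 33.1 and 24.4 CPM in injured ganglia of days 1, 3 and 7, 17.0, 16.0 and 18.5 CPM on the contralateral side and 19.4 and 19.5 CPM without injury, with all injured libraries above the rest (log2 0.78 ± 0.12, SE; edgeR adjusted p = 0.00742). In 14.7% of genes tested every injured library was above every contralateral one. Sorl1, a sorting receptor related to sortilin, fell by 0.73 (SE 0.18; edgeR adjusted p = 0.0419), with ratios that came mainly from days 3 and 7: 383, 189 and 188 CPM in injured ganglia of days 1, 3 and 7 against 438, 389 and 357 CPM in contralateral ganglia. That call was lost without day 3, without day 7, without the pool labelled no injury, without the block and with no filter (adjusted p = 0.175, 0.192, 0.0796, 0.0981 and 0.187). Sorcs1 and Sorcs3, further members of the family, did not pass, with log2 differences of 0.19 and -0.25.

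Among 32 genes of Trk adaptors and signalling, 3 rose and 3 fell (median log2 0.07). Irs2, an insulin receptor substrate that also couples to other kinases, had a log2 difference of 0.78 ± 0.16, the adaptor gene Shc2 of 0.32 ± 0.07 and the Rap activator gene Rapgef1 of 0.22 ± 0.05. Among those that fell were Frs3, a docking protein of Trk and fibroblast growth factor receptors (-0.43 ± 0.08), and the Ras activator gene Sos1 (-0.31 ± 0.08). Shc2, Rapgef1 and Sos1 lost their calls without day 3, without day 7 or without the pool labelled no injury, Irs2 without day 3, without that pool or with no filter, and Frs3 without day 7.

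Among 21 p75 partners and effectors, 2 rose and 2 fell (median log2 0.06). Those that fell were Rtn4rl1, a Nogo receptor relative (log2 -0.74 ± 0.09, SE; edgeR adjusted p = 0.00418), and Lingo1, a co-receptor of p75 (-0.46 ± 0.06). Rtn4r, the Nogo receptor, and its relative Rtn4rl2 did not pass, at -0.11 and -0.19 (edgeR adjusted p = 0.489 and 0.420). Rtn4rl1 was at 80.8, 58.9 and 60.5 CPM in injured ganglia of days 1, 3 and 7, 115, 113 and 103 CPM on the contralateral side and 104 and 111 CPM without injury. The injured libraries were below all others, and in 15.7% of genes tested every injured library was below every contralateral one. Adam17, a protease that sheds the extracellular part of p75, rose by 0.49 (SE 0.10), and the small GTPase gene Rhoa by 0.22 (SE 0.06). Adam17 was not called without day 3, without day 7 or without the block, where it had 0.30 (edgeR adjusted p = 0.0691, 0.077 and 0.403), and Rhoa not without day 3, without day 7, without the pool labelled no injury or by DESeq2 (adjusted p = 0.181, 0.189, 0.0968 and 0.0576). Maged1 and Adam10 had log2 differences of 0.27 and 0.37 (edgeR adjusted p = 0.0706 and 0.0710).

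Of 15 genes for sorting and cleavage of neurotrophins tested, 1 rose (median log2 0.05). Plat, which encodes tissue plasminogen activator, had a log2 difference of 0.94 ± 0.25 (edgeR adjusted p = 0.0617). Serpini1, Cadps2, Cpe and Pcsk2, which act in neuronal protease inhibition, vesicle release, cargo sorting and prohormone cleavage, had -0.25, -0.55, -0.22 and -0.21 (edgeR adjusted p from 0.0542 to 0.0888).

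Of 19 genes of Trk trafficking and negative regulation tested, 3 rose and 2 fell (median log2 -0.05). The phosphatase gene Ptpn1 rose by 0.74 (SE 0.07; edgeR adjusted p = 0.00143), Ehd4, which acts in uptake of Trk receptors into endosomes, by 0.51 (SE 0.06), and Lrig1, a membrane protein that restrains receptor tyrosine kinases, by 0.81 (SE 0.13). Coro1a, an actin-binding protein of signalling endosomes and of leukocytes, fell by 0.33 (SE 0.06) and Spry4, an inhibitor of kinase signalling, by 0.37 (SE 0.09). Lrig1 lost its call without day 7, and Spry4 without day 3, without day 7, without the pool labelled no injury or without the block. Nedd4l had -0.34 (edgeR adjusted p = 0.0539).

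**Figure D5:**
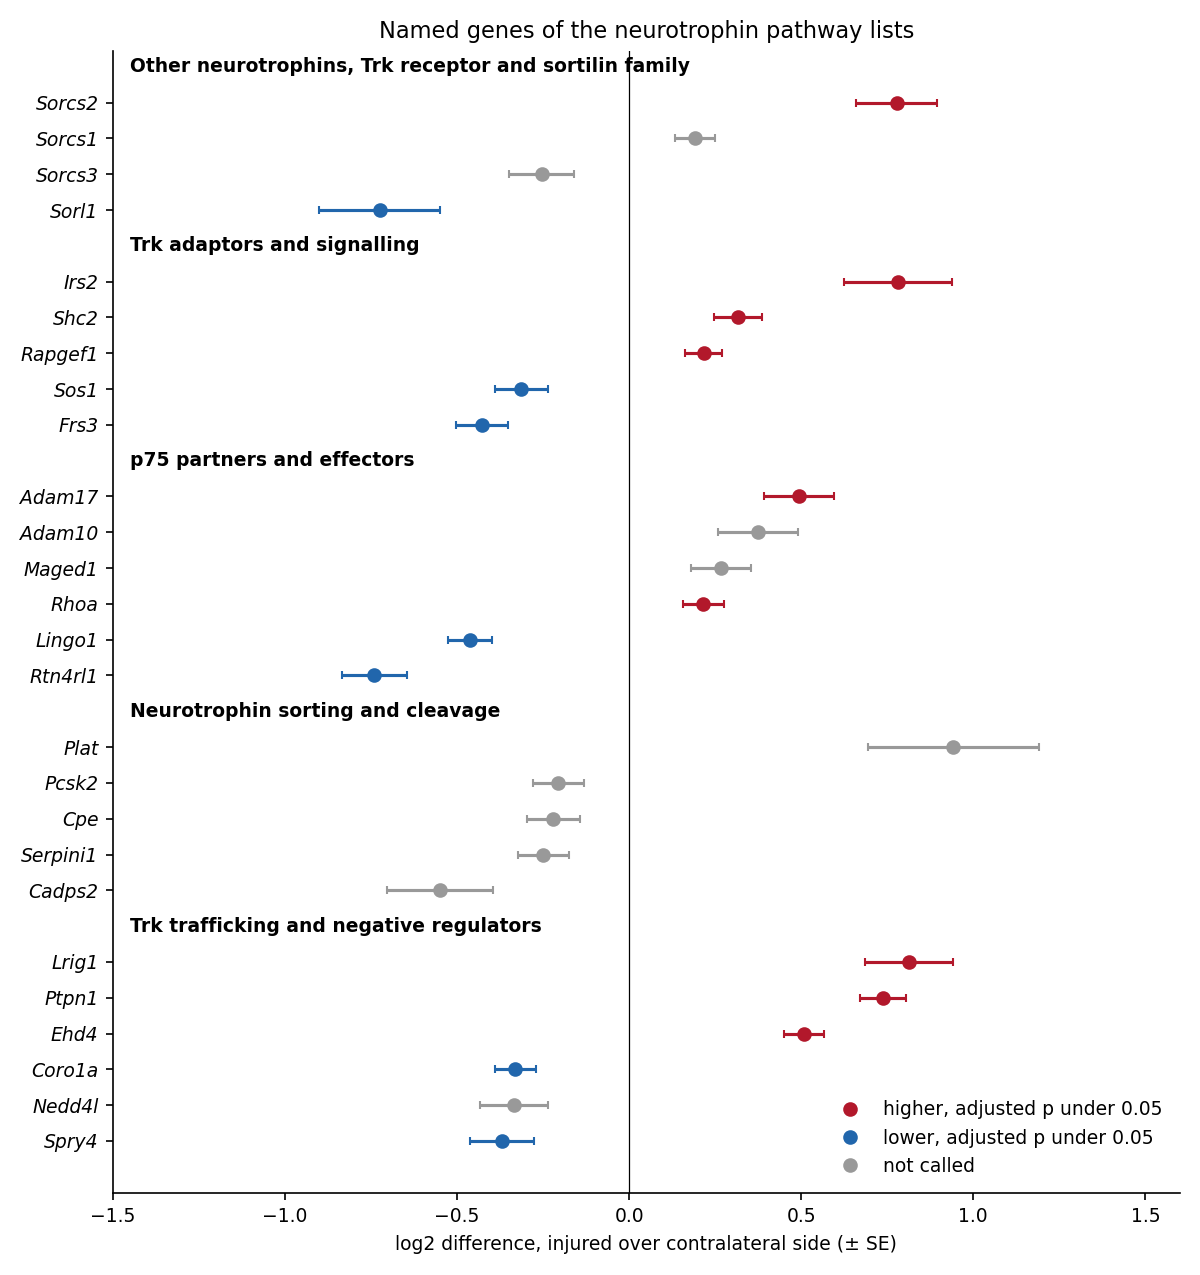
Log2 difference between the injured and the contralateral side with its SE for the genes named from the 5 pathway lists, ordered within a list by the difference. Red marks genes called higher, blue genes called lower and grey genes not called; Plat has the highest difference (0.94), without a call, and Rtn4rl1 the lowest (-0.74) among those drawn.

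The genes whose log2 level followed each of the 6 most closely over the 8 libraries were sought among 11284 protein-coding genes with a mean of at least 5 CPM, by Pearson's r, as a description. The 8 libraries share pools and sides, so r is no measure of a link between genes. For Bdnf these were Dnajb1, a heat shock co-chaperone gene (r = 0.99), Ebp, a sterol synthesis gene (0.99), and Trpv2, a cation channel gene of sensory neurons (0.99). Trpv2 was at 129, 108 and 90.1 CPM in injured ganglia of days 1, 3 and 7, 88.8, 83.6 and 80.1 CPM on the contralateral side and 72.7 and 81.8 CPM without injury, the order of days seen for Bdnf on both sides.

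For Ntrk3 they were Eif1ax, a translation initiation factor gene (r = 1.00), Dmxl2, a synaptic vesicle gene (0.99), and Prune2 (0.99). Ngfr was followed by the sodium channel subunit gene Scn3b, by Ncdn and by Hpcal1 (0.98, 0.98 and 0.97), Ntrk2 by Keap1, Cep63 and Ubtd2 (0.97, 0.95 and 0.95), and Sort1 by Mterf2, Orc3 and Prom1 (0.95 each). Ntf3 was followed by Cd99l2 and Rnf168 (0.97 each). Cd99l2, Eif1ax and Ebp lie on the X chromosome, and the libraries labelled no injury differed from the others in Xist; the part of that difference in these r values was not tested. Among the 6 genes themselves r was highest between Ntf3 and Ntrk3, at 0.835, and lowest between Ngfr and Sort1, at -0.777.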

How the data were processed

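RNA sequencing counts of 8 pooled libraries were used. Whole-number read counts per Ensembl gene are given in the deposited table, per its values; the submitters' processing notes name cutadapt 1.16, STAR 2.5.4a, featureCounts 1.6.3 and DESeq2 with the build GRCm38, without their roles. The annotation release, the strand setting and the handling of multi-mapping reads are unstated in the labels. GENCODE M21 (GRCm38) matched 53706 of 53801 gene IDs, and all 8 columns of values were used. CPM is the count over the library total, and per-length levels divide it by the union of annotated exons.

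The fits used edgeR 4.0.16 in R 4.3.3 (TMM, filterByExpr with a minimum count of 10, robust quasi-likelihood), each pool being a block because the design text makes each mouse its own control (3 residual degrees of freedom). As a check, each pool's left and right deviations from the means of their states were correlated at 0.246, -0.0332 and 0.356 in the pools of days 1, 3 and 7. DESeq2 1.42.0 and limma 3.58.1 were alternatives. A SE is the log2 difference over the square root of F. Ratios within a pool have exact binomial 95% intervals (Clopper-Pearson). The scripts were tested on simulated counts. The 3 reads behind a count of 0 equal 0.139 to 0.146 CPM. No 2 libraries agreed within sampling noise (chi-square per gene at least 6.46).

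The 6 genes, the 5 pathway lists and the marker lists were chosen with earlier results of these data known. Besides the 6, the text names up to 6 genes with the lowest p from each pathway list, the 3 genes with the highest r for each of the 6, the injury genes Atf3, Sprr1a, Gal, Npy and Csf1, and single markers as examples. Of these, Etv1, Nefh, Spp1, Pvalb, Rtn4r, Rtn4rl2 and the repair Schwann cell genes were chosen after their values were seen. Some genes that this rule selects are not reported here by name; the counts include them.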

Additional observations from a re-analysis of the deposited data

Results flagged for a closer look

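Ngfr, Ntrk2 and Sort1 stood above the contralateral side in 1 operated pool and below it in another, each with counting intervals that excluded 1. Ngfr had a ratio of the injured to the contralateral library of 1.08 at day 1, 0.752 at day 3 and 0.943 at day 7. Ntrk2 had ratios of 1.06, 0.871 and 0.859 at days 1, 3 and 7. Sort1 had 0.872 at day 1 and 1.07 at day 3. Each day has 1 library of a side, so a difference between single days rests on 1 pool per day. The slopes over all days did not pass (edgeR adjusted p = 0.872 for Ngfr, 0.647 for Ntrk2 and 0.787 for Sort1). Without day 7 the slope compares days 1 and 3 only. It was then -0.33 for Ngfr, which passed as given above, and -0.18 for Ntrk2 and 0.19 for Sort1, which did not. The left to right ratio of Ngfr without injury, 0.933, also had a counting interval that excluded 1.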

How the results depend on the processing

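In the comparison of the sides, 2 of the 6 genes were called; with the replicate block (the pool) left out 1 was, Bdnf, with side as a further term 0, and with 1 pool left out at a time 1 to 3. For the slope over days the count was 0, and 0 to 1 with a pool left out. For contralateral against no injury it was 0, 1 with no filter on low counts, 1 by DESeq2 and 0 to 2 with a pool left out, and for injured against no injury 0, and 0 to 3 with a pool left out. Of the single values under alternatives, 200 kept direction and side of the threshold, 9 gained a call, 6 lost it and 11 turned sign, none of those called in either fit. With a pool left out the turned ones ranged from -0.25 to 0.015 for Ngfr and -0.098 to 0.047 for Sort1 between the sides, from -0.33 to 0.28 for Ngfr, -0.27 to 0.11 for Ntrk3 and -0.076 to 0.19 for Sort1 in slope, from -0.11 to 0.014 for Ntrk2 on the contralateral side, and from -0.12 to 0.11 for Ngfr and -0.13 to 0.0013 for Sort1 against no injury. Ngfr there was also -0.024 with no filter, -0.0021 by limma-voom and -0.043 against the right library alone. Over all genes 2946 calls between the sides became 631 to 4669 with a pool left out and 6 with side as a term. The 0 calls of the slope became 9 with DESeq2 size factors, 32 with no filter, 48 by DESeq2 and 0 to 1214 with a pool left out. The 47 calls of contralateral against no injury became 698, 158 and 98 with no filter, by DESeq2 and by limma-voom, and 16 to 954 with a pool left out. The 23 of injured against no injury became 479, 653 and 13, and 1 to 3148. The cause was not tested. DESeq2 gave no adjusted p for Ntf3 between the sides or in slope. Leaving the pool labelled no injury out of the slope was chosen after seeing the data and called 0 genes. Depth limits Ntf3, with 6 to 45 reads per library; each day rests on 1 library of a side.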

Other observations

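Other cell type markers were counted in the same comparison of injured with contralateral ganglia (edgeR, threshold 0.05). Of 10 satellite glia genes 4 rose and 0 fell, of 10 macrophage genes 3 rose and 0 fell, and of 10 fibroblast and vessel genes 4 rose and 0 fell. Of the 5 central nervous system glia genes tested 2 rose, of the 4 lymphocyte genes tested 1 fell, and of 10 myelinating Schwann cell, 10 neutrophil and marrow, and 10 skeletal muscle genes 0 were called. In the same test 10.1% of all genes rose and 8.02% fell. The median log2 difference was 0.24 for satellite glia, 1.08 for macrophage and 0.62 for fibroblast and vessel genes, against 0.02 for all genes. Summed macrophage markers were at 62.1, 278.6 and 265 CPM in injured ganglia of days 1, 3 and 7, 56.0, 79.9 and 114 CPM in contralateral ganglia, and 117 and 93.0 CPM without injury. Their part in the levels of the 6 neurotrophin and receptor genes was not tested.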
